A study of Solanum tuberosum with 5 samples.

Results

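In potato plantlets kept in long days (LD), some transcripts declined over the days after sampling began, and a part of these declined less, or not at all, in plantlets moved to short days (SD). The 127 tags described here are those in which the LD decline was held back in SD on both days sampled, out of 27553 distinct tags in the series. A tag is a short stretch of a polyadenylated transcript next to a restriction site, and its count in a library stands for the abundance of that transcript. The tags were selected on their measured values: a tag had to be listed in all 5 libraries, with at least 10 tags per 1000000 library tags (TPM, after the authors' header) in at least 1. With 1 TPM added to each value, it had to stand at or below 1/1.5 of the day 0 level in both LD day 2 and LD day 5, and at least 1.5 times the LD level of the same day in both SD day 2 and SD day 5. All 5 libraries therefore took part in the choice, and the levels below are descriptions with no test.

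The study sampled plantlets of the genotype labelled E26 of Solanum tuberosum, all grown in LD for 3 weeks. The groups were SD day 2 and SD day 5, taken 2 and 5 days after transfer to SD, LD day 2 and LD day 5, kept in LD for the same times, and LD day 0, taken at the transfer. Each group is 1 library, with no replicate, and the number of plantlets in each is not given in the sources used here. Tags are not assigned to genes here, so the members are numbered from 1, the most abundant at day 0, to 127, the least abundant, and the tissue label was not checked against marker genes.

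Day length is sensed in the potato leaf. In long days phytochrome B and a CONSTANS-like regulator hold down a mobile relative of FLOWERING LOCUS T, and in short days this signal is made, moves to the stolons and starts tuber formation. In whole plantlets, fewer cells of a type and less RNA per cell cannot be told apart.

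Library totals lay between 3492458 and 3688120 tags, so that 10 TPM rested on 34.9 to 36.9 tags. Of the 8910 tags listed in every library, 6208 reached 10 TPM in at least 1 and could enter the rule. The SD day 2 library as a whole lay nearer to LD day 0 than to LD day 2, with 56.9% of the 6208 tags within 1.5-fold of LD day 0 and 50.6% within 1.5-fold of LD day 2. The SD day 5 library lay nearer to LD day 5, with 69.6% of the tags within 1.5-fold of LD day 5 and 33.1% within 1.5-fold of LD day 0. The part of these whole-library distances in the values below was not tested.

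In LD, 24.7% of the 6208 tags stood at or below 1/1.5 of day 0 at day 2, and 27.5% did so at day 5. Both held for 1118 tags. SD day 2 was at least 1.5 times LD day 2 in 602 of these 1118 tags (53.8%), against 19.5% of the 6208. SD day 5 was at least 1.5 times LD day 5 in 174 of them (15.6%), against 9.81% of the 6208. More of the falling tags thus met the 1.5-fold mark at day 2 than at day 5, as did more of the 6208. The 1118 tags were chosen for low LD values, and SD is divided by those same values. The choice itself therefore raises both shares above those of the 6208, and nothing is read from that difference. The 127 tags held back on both days made up 21.1% of the day 2 list and 73.0% of the day 5 list. They were 11.4% of the tags that fell in LD. In the opposite direction, 186 of 1632 tags that stood at least 1.5-fold above day 0 on both LD days were held back in SD on both days, also 11.4%.

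In SD the median level of these tags was close to day 0 at day 2 and much lower at day 5. With 1 TPM added, the median member stood at 97.4% of its day 0 level in SD day 2 (quartiles 75.9% and 114%), against 41.9% in LD day 2 (quartiles 28.2% and 52.8%). In SD day 5 the median was 38.4% (quartiles 21.5% and 81.0%), against 16.2% in LD day 5 (quartiles 9.56% and 36.4%). Single members ranged from 37.1% to 270% in SD day 2 and from 6.50% to 171% in SD day 5. The members summed to 1.65% of all library tags in SD day 2 and 0.982% in SD day 5. The same sum made up 0.637% of the library at LD day 2, 0.379% at LD day 5 and 1.68% at LD day 0. Tags 1 to 4 carried 51.1% of that sum in SD day 5. Without them the sum was 91.3% of its day 0 value at SD day 2 and 42.5% at SD day 5, against 30.6% and 17.4% on these days in LD.

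**Figure D1:**
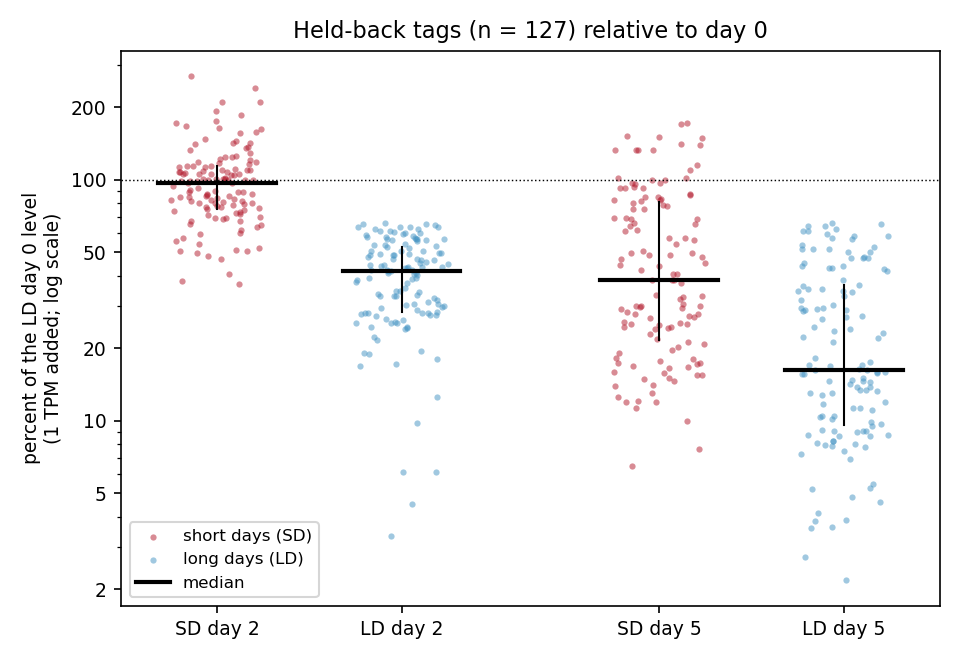
Level of each of the 127 held-back tags (points) on days 2 and 5 in SD and in LD, as a percent of its LD day 0 level with 1 TPM added (log axis), with the median (thick line) and quartiles (thin line). The SD day 2 points centre on the dotted day 0 line with a median of 97.4%, while the SD day 5 points spread from 6.50% to 171%.

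The share of the LD fall that SD held back also differed between the days. On the log2 scale, where 100% means no fall in SD and 0% the full LD fall, the median share was 95.9% at day 2 and 44.5% at day 5. It was at least 50% in 120 of the 127 tags at day 2 and in 54 at day 5. The share was larger at day 2 in 112 tags. It is divided by the LD fall, whose median log2 ratio to day 0 was -1.25 at day 2 and -2.63 at day 5. The SD over LD ratio itself differed less, with a median log2 of 1.18 at day 2 and 0.94 at day 5. Because the rule asks for at least 1.5-fold on each day, a small LD fall alone gives a large share. Nothing is therefore read from the difference in share between the days. From SD day 2 to SD day 5 the level fell to 1/1.5 or less in 86 members (67.7%). Such a drop held for 67.0% of all 1118 LD-falling tags, the members among them, and for 30.9% of the 6208 tags. From LD day 2 to LD day 5 it was seen in 77 members (60.6%), against 36.3% of the 1118 and 19.3% of the 6208. Both photoperiods therefore held declining members between days 2 and 5. SD day 5 stood close to LD day 2 in the middle of the set, with a median ratio of 1.08 with 1 TPM added, against 0.947 over the 6208 tags. SD day 5 was at least 1.5 times LD day 2 in 47 members (37.0%), against 10.9% of the 1118 and 19.3% of the 6208. It was at or below 1/1.5 of LD day 2 in 38 members (29.9%), against 46.8% of the 1118 and 30.5% of the 6208. The rule chose low LD day 2 values and SD day 5 values above LD, so nothing is read from these differences.

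A tag is said to keep its day 0 level where its SD value, with 1 TPM added, was at least 1/1.5 of the LD day 0 value. By this measure 108 of the 127 members kept it in SD day 2 (85.0%), against 74.5% of the 6208 tags, and 41 kept it in SD day 5 (32.3%), against 66.7%. Most of the 6208 tags had not fallen in LD. Of all 1118 tags that had, the members among them, 53.0% kept the day 0 level in SD day 2 and 9.48% in SD day 5. The 475 of these held back on day 2 only kept it in 75.2% at SD day 2 and 4.00% at SD day 5, and the 469 held back on neither day in 23.0% and 5.97%. These sets were divided by the same SD and LD values, the 469 for not standing 1.5-fold above LD, so the choice itself favours a higher share in the members, and nothing is read from the difference. The level was kept on both days by 38 members (29.9%), against 52.9% of the 6208 tags, on day 2 only by 70, on day 5 only by 3 and on neither day by 16. Members at least 1.5-fold above day 0 numbered 13 in SD day 2 (10 of them among the 38) and 4 in SD day 5, against 17.6% and 33.5% of the 6208 tags.

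**Figure D2:**
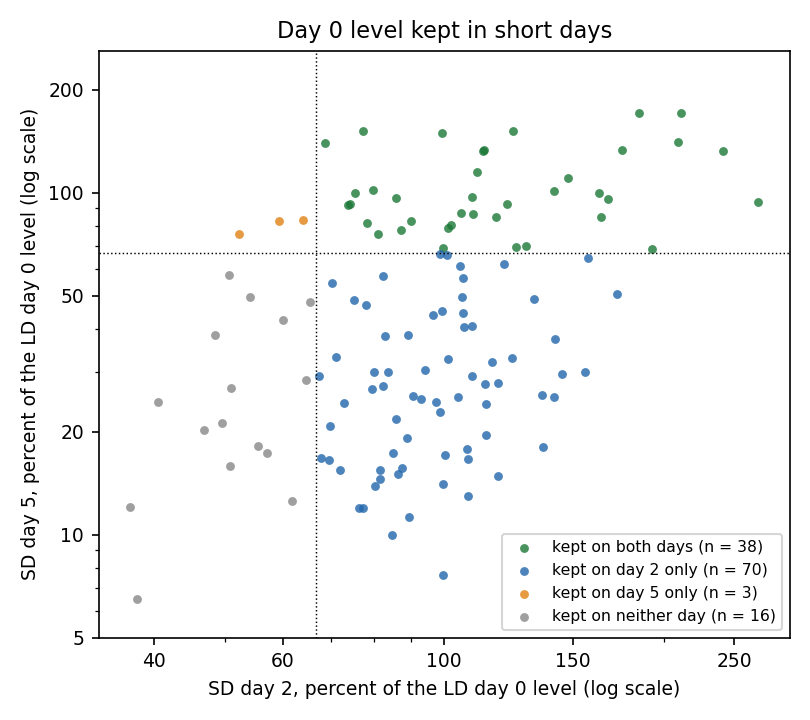
Percent of the LD day 0 level in SD day 2 (horizontal, log axis) and SD day 5 (vertical, log axis) for the 127 held-back tags, coloured by class, with dotted lines at 1/1.5 of day 0. The largest class, 70 tags, lies right of the vertical line and below the horizontal one, and 3 tags lie above the horizontal line alone.

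**Figure D3:**
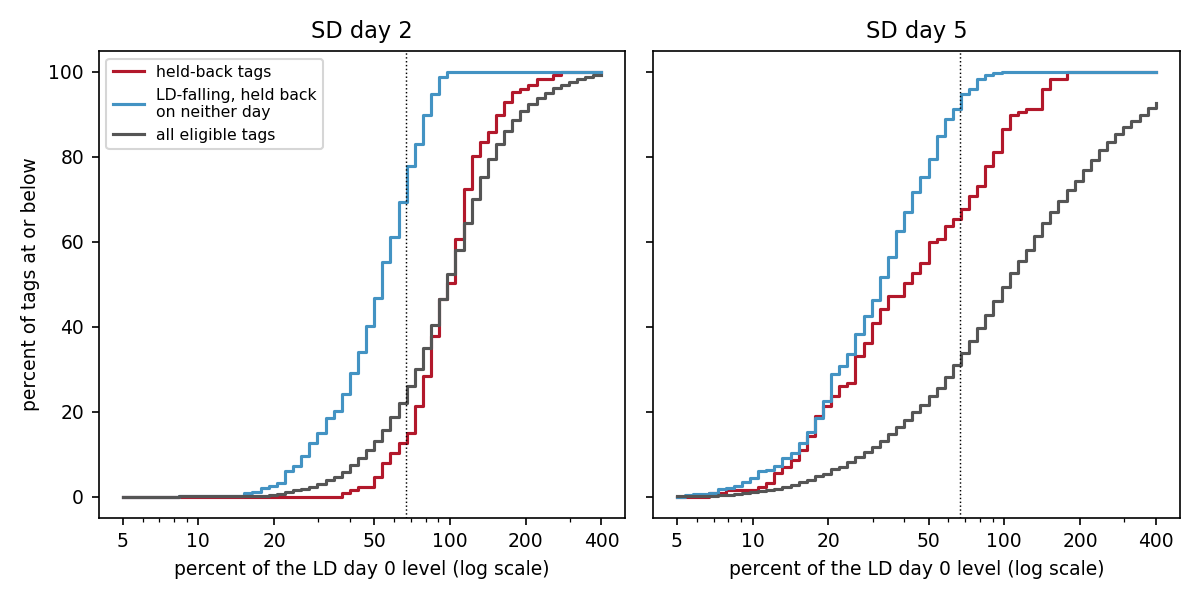
Cumulative percent of tags at or below each percent of the LD day 0 level (log axis, 60 grid points) in SD day 2 and SD day 5, for the 127 held-back tags, the 469 LD-falling tags held back on neither day and the 6208 tags in the rule. The sets were divided by these same values; in SD day 2 the held-back tags run close to the 6208 tags, with medians of 97.4% and 94.9%, and in SD day 5 they start close to the neither-day tags at low percents and part from them higher up, with medians of 38.4%, 31.4% and 99.3% for the held-back, neither-day and 6208 tags.

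The 38 tags that kept the day 0 level on both days stood at a median of 112% of day 0 at SD day 2 and 96.4% at SD day 5, against 48.2% and 47.7% on these days in LD. In 30 of the 38 (78.9%), LD day 5 lay within 1.5-fold of LD day 2, against 63.3% of the 6208 tags, and it was lower by more in 4 and higher by more in 4. The 4 most abundant were tags 1, 3, 4 and 8. Tag 1 was the most abundant member, with 1667 TPM at day 0, 1882 at SD day 2 and 2214 at SD day 5, against 942 at LD day 2 and 1023 at LD day 5. Tag 4, also at its highest in SD day 5, had 1004 TPM at day 0, 1247 at SD day 2 and 1522 at SD day 5, against 661 at LD day 2 and 432 at LD day 5. In both tags SD lay above day 0 on each day, and at SD day 5 by 1.33-fold for tag 1 (95% counting interval 1.28 to 1.37) and 1.52-fold for tag 4 (interval 1.45 to 1.58).

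Tag 3 held level at first, with 1237 TPM at day 0 and 1231 at SD day 2, and then 851 at SD day 5, against 538 at LD day 2 and 178 at LD day 5. The ratio of SD over LD was 2.29 at day 2 (2.17 to 2.41) and 4.78 at day 5 (4.39 to 5.21). Tag 8 passed through a high point, with 677 TPM at day 0, 1137 at SD day 2 and 649 at SD day 5, against 115.1 at LD day 2 and 110.4 at LD day 5. Its SD day 5 value and its day 0 value differed by no more than counting error, with a ratio of 0.960 (interval 0.906 to 1.02). Over LD, SD stood 9.88-fold higher in tag 8 at day 2 (8.92 to 11.0) and 5.88-fold higher at day 5 (5.29 to 6.56).

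Less abundant tags of this class reached larger ratios on fewer counts. Tag 57 had 43.1 TPM at day 0, 34.8 at SD day 2 and 32.4 at SD day 5, against 1.69 at LD day 2 and 2.98 at LD day 5, so that SD kept 81.1% and 75.6% of day 0 at days 2 and 5 where LD kept 6.10% and 9.02%. Tag 111 had 13.8 TPM at day 0, 34.8 at SD day 2 and 18.6 at SD day 5, against 0.85 at LD day 2 and 2.98 at LD day 5. Its LD day 2 value rests on 3 counted tags. Tags 46, 85 and 97 were the members farthest above day 0 on both SD days. Tag 46 had 50.7 TPM at day 0, 94.7 at SD day 2 and 87.3 at SD day 5, against 24.3 at LD day 2 and 24.9 at LD day 5. Tag 97 stood at 16.6, 36.2 and 29.2 TPM along the same SD series, against 9.03 at LD day 2 and 10.6 at LD day 5. Tag 85 stood at 24.5, 52.5 and 34.9 TPM, against 15.5 at LD day 2 and 11.1 at LD day 5. In these 3 tags the counting intervals of both SD values over day 0 lay above 1.

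**Figure D4:**
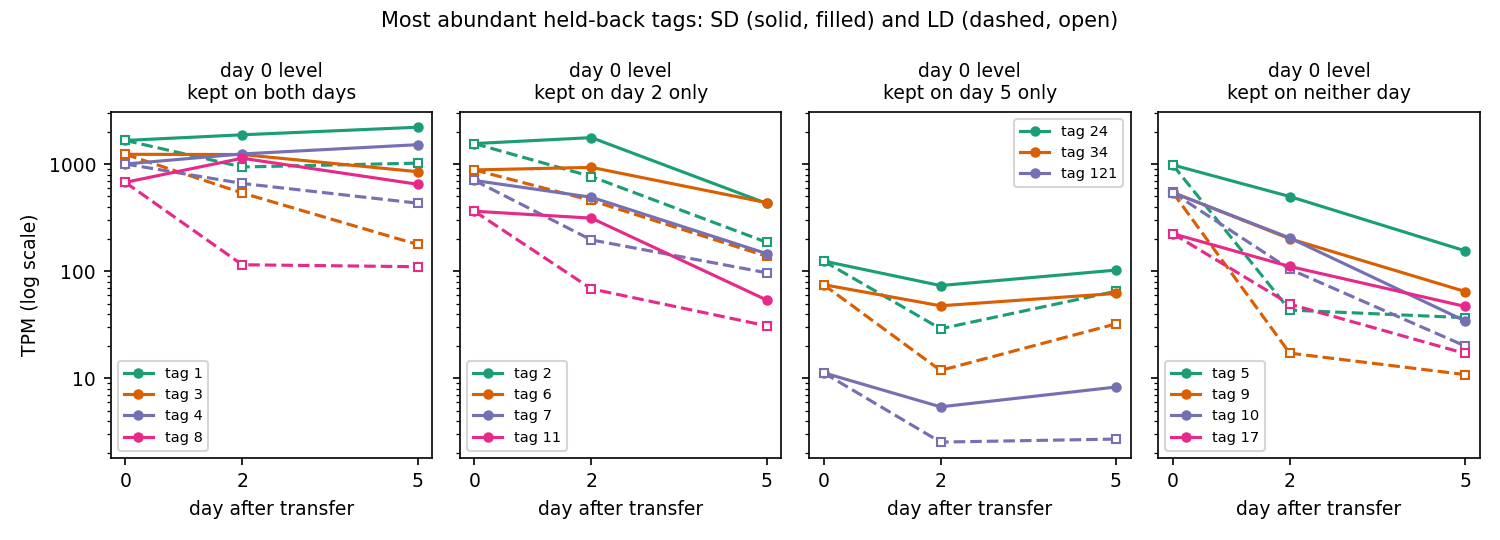
TPM (log axis) over days 0, 2 and 5 of the most abundant held-back tags of each class, 4 per class and the 3 members kept on day 5 only, with SD as solid lines with filled points and LD as dashed lines with open points; both start from the same LD day 0 value. SD lies above LD on both days in every panel, and tag 1 ends at 2214 TPM in SD and 1023 TPM in LD.

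In the 70 tags that kept the day 0 level on day 2 only, SD stood at a median of 98.7% of day 0 at day 2 and 26.9% at day 5, against 42.6% and 13.2% in LD on those days. The LD level went on falling in this class, to 1/1.5 or less of LD day 2 in 63 of the 70, and SD day 5 fell to 1/1.5 or less of SD day 2 in 67. The way the class is defined sets part of this, because a tag that lost its day 0 level in SD day 5 and still stood 1.5-fold above LD must have been lower still in LD day 5. By day 5 the SD level of these tags was at or below 1/1.5 of the LD day 2 level in 35 and at least 1.5 times it in 7.

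Tag 2 is the most abundant of the 70, with 1559 TPM at day 0, 1771 at SD day 2 and 430 at SD day 5, against 767 at LD day 2 and 186 at LD day 5. Its SD over LD ratio was 2.31 on both days (intervals 2.21 to 2.42 at day 2 and 2.11 to 2.53 at day 5), while the SD level itself stood above day 0 at day 2 and at 27.6% of it at day 5. Tag 6 had 884 TPM at day 0, 934 at SD day 2 and 437 at SD day 5, against 458 at LD day 2 and 138 at LD day 5. Tag 11 had 364 TPM at day 0, 314 at SD day 2 and 53.8 at SD day 5, against 68.5 at LD day 2 and 30.9 at LD day 5. Tags 2, 6 and 11 kept 114%, 106% and 86.3% of day 0 in SD day 2, and 27.6%, 49.5% and 15.0% in SD day 5.

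Tags 13, 33, 62 and 119 were the 4 of this class with the highest SD over LD ratios, ranked by the smaller of both days with 1 TPM added. Tag 13 had 355 TPM at day 0, 293 at SD day 2 and 95.9 at SD day 5, against 20.9 at LD day 2 and 8.68 at LD day 5. Tag 33 had 75.2 TPM at day 0, 93.5 at SD day 2 and 24.0 at SD day 5, against 12.7 at LD day 2 and 2.98 at LD day 5. Tag 13 thus kept 82.4% and 27.2% of day 0 on the SD days, and tag 33 kept 124% and 32.9%. Tag 62 had 36.9 TPM at day 0, 58.2 at SD day 2 and 10.3 at SD day 5, against 16.4 at LD day 2 and 1.63 at LD day 5. Tag 119 had 11.8 TPM at day 0, 12.0 at SD day 2 and 7.44 at SD day 5, against 2.26 at LD day 2 and 1.08 at LD day 5. The LD day 5 values of tags 62 and 119 rest on few counts, and their SD over LD intervals at day 5 ran from 2.64 to 18.4 and from 2.38 to 27.1.

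The 16 tags that kept the day 0 level on neither day fell in SD as well, only less far. They stood at a median of 50.9% of day 0 at SD day 2 and 22.8% at SD day 5, against 27.7% and 10.4% on these days in LD. Tag 5 had 984 TPM at day 0, 499 at SD day 2 and 155.2 at SD day 5, against 43.4 at LD day 2 and 36.9 at LD day 5, and its ratio of SD over LD was 11.5 at day 2 (9.74 to 13.6) and 4.21 at day 5 (3.48 to 5.12). Tag 9 had 545 TPM at day 0, 201.3 at SD day 2 and 64.7 at SD day 5, against 17.2 at LD day 2 and 10.9 at LD day 5. In both tags the LD level had dropped to under 5% of day 0 by day 2, while SD passed through a middle level. Tag 10 had 543 TPM at day 0, 205.0 at SD day 2 and 34.4 at SD day 5, against 104.6 at LD day 2 and 20.1 at LD day 5. At 6.50% of day 0 in SD day 5, tag 10 kept the least of its level among the 127. Tag 17 had 225 TPM at day 0, 110.9 at SD day 2 and 47.0 at SD day 5, against 49.4 at LD day 2 and 17.1 at LD day 5. Tag 70 stood at 32.4, 12.5 and 7.16 TPM along the same SD series, against 2.26 at LD day 2 and 1.63 at LD day 5.

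In the 3 tags that kept the day 0 level on day 5 only, the day 2 value was the lowest of days 0, 2 and 5 in both photoperiods, for tag 121 within counting error of day 5. For SD the class definition sets this, because SD day 2 had to lie below day 0 and below SD day 5. Tag 24 had 125 TPM at day 0, 73.6 at SD day 2 and 102.5 at SD day 5, against 29.1 at LD day 2 and 65.1 at LD day 5. Tag 34 had 74.97 TPM at day 0, 47.6 at SD day 2 and 62.1 at SD day 5, against 11.8 at LD day 2 and 32.3 at LD day 5. Tag 121 had 11.3 TPM at day 0, 5.42 at SD day 2 and 8.30 at SD day 5, against 2.54 at LD day 2 and 2.71 at LD day 5. The LD values of tag 121 rest on 9 tags at day 2 and 10 at day 5, its interval of SD day 5 over SD day 2 ran from 0.83 to 2.89, and that of SD over LD at day 2 from 0.920 to 5.36.

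The level kept at SD day 5 was also set out by abundance at day 0. The 28 members at 100 TPM or more at day 0 kept a median of 96.2% in SD day 2 and 27.4% in SD day 5, and the 64 members between 20 and 100 TPM kept 90.4% and 29.8%. The 35 members under 20 TPM kept 101% and 65.7%. Rare members also fell less in LD, to a median of 28.5% of day 0 in LD day 5, against 13.6% for the 28 most abundant. For rare tags the added 1 TPM moves these percents towards 100%, and 37 of the 127 members had at most 10 counted tags in LD day 5. The selection also bears on the rarest, since 4 members stood under 10 TPM at day 0 and entered through their SD values alone. The part of these in the differences between abundance classes was not tested.

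Counting error covered part of the day 5 ratios. The interval of SD over LD included 1 in 3 of the 127 members at day 2 and in 32 at day 5, and the intervals of all 4 ratios in the rule lay beyond 1 in 93 members. Relative to day 0, the SD day 2 interval included 1 in 67 members, lay below it in 34 and above it in 26. In SD day 5 it included 1 in 26 members, lay below in 92 and above in 9. These intervals reflect the counting of tags alone: the labels describe no molecular identifiers, so copies of 1 molecule may be counted more than once, and the spread between plantlets is not in them.

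Near the threshold, the 2 members with the least margin were tags 7 and 71, with SD day 5 over LD day 5 at 1.503 and 1.504 after the added 1 TPM. Tag 7 had 705 TPM at day 0, 491 at SD day 2 and 146.0 at SD day 5, against 196 at LD day 2 and 96.8 at LD day 5. Tag 71 stood at 32.4, 35.1 and 4.58 TPM along the same SD series, against 16.9 at LD day 2 and 2.71 at LD day 5. Its day 5 values rest on 16 counted tags in SD and 10 in LD. The counting interval of SD over LD at day 5 ran from 0.721 to 4.17 for tag 71, including 1, and from 1.32 to 1.73 for tag 7. The nearest tag outside fell 1.498-fold at LD day 5, with 57.8 TPM at day 0, 49.3 at SD day 2 and 80.8 at SD day 5, against 25.7 at LD day 2 and 38.2 at LD day 5. The next missed at day 2, at 1.493 times LD, with 16.9 TPM at day 0, 14.0 at SD day 2 and 6.30 at SD day 5, against 9.03 at LD day 2 and 2.98 at LD day 5.

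Base composition and likeness between tags were not used by the rule. The members had a median of 41.2% G and C in the 17 bases after the restriction site, the same as the 1118 LD-falling tags, against 35.3% in the 6208. The quartiles, 29.4% and 47.1%, were the same in the members and in the 6208. Tags of different transcripts can differ by only a few bases, and 10 of the 127 members had another tag of the series within 2 differing bases. A single pair lay within the set: tags 9 and 13 differ at 2 of 21 bases. At SD day 2, tag 13 kept 82.4% of its day 0 level and tag 9 kept 37.1%. Whether these 2 tags belong to related transcripts or to variants of 1 was not tested. Tag 5 had a relative at 2 differing bases that reached 325 TPM at SD day 2, against 192 at LD day 0, and was not listed in the other 3 libraries. The tags listed in all 5 libraries follow 1 row order in every file, and the members were spread along 95.5% of it, with 5 to 20 members in each of 10 equal stretches and 1 pair in adjacent rows.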

How the data were processed

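Per the labels' protocols, tag libraries of polyadenylated RNA were made with an Illumina Gene Expression Sample Prep Kit, and each file lists 21-base tags. The deposited values are RPM, tags per 1000000 library tags, headed TPM per the file headers and not divided by transcript length. How tags were mapped and filtered by the authors, and against which reference, is not given in the sources used here. Library totals were recovered as the number of tags for which the values are whole multiples of 1 tag, within 0.006 TPM for at least 99.98% of them, and whole tags were taken from these. The lowest value was 2 tags in every library. A tag not listed in a library was left out, not set to 0, so 18643 tags could not enter the rule.

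The rule, the classes and the ratios were computed with Python 3.11.15, pandas 2.3.3 and numpy 2.4.6. Ratios given with an interval are of deposited values, with the exact 95% Clopper-Pearson interval of whole tags conditional on their sum (scipy 1.17.1). Percents of day 0, medians of ratios, fold thresholds and rankings use 1 TPM added to each value. No test was made, since each group is 1 library and the members were chosen from the same values. The members, the rule and the comparisons were chosen with earlier results of these data known. Named are, in each class, the 4 members highest at day 0 and the 4 with the highest smaller ratio of SD over LD with 1 TPM added, the 3 farthest above day 0 on both SD days, and those nearest the threshold; tags 90 and 118 and the tags within 2 bases of a member were chosen after their values were seen. The recovery of library totals, the rule and the counting interval were checked on simulated counts. The simulation held counting error only, with falls placed in LD and SD left at the day 0 level. It does not bear on the spread between plantlets. Alternatives were TMM, median-of-ratios and listed-tag scaling (formulas computed in Python), 0.1 or 5 TPM added, no floor or a floor of 50 TPM, a 2-fold threshold, and counting intervals required to lie beyond 1.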

Additional observations from a re-analysis of the deposited data

Results flagged for a closer look

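In 3 members SD lay at least 1.5-fold above LD day 0 at day 2 and at or below 1/1.5 of it at day 5, and the difference between the days was not tested. Tag 62 had a log2 ratio of SD over LD day 0 of 0.64 at day 2 and -1.75 at day 5, with 1 TPM added. Tag 90 had 0.79 and -0.99 in the same order, with 22.6 TPM at day 0, 39.6 at SD day 2 and 10.9 at SD day 5, against 6.20 at LD day 2 and 2.98 at LD day 5. Tag 118 had 0.66 and -0.64, with 12.1 TPM at day 0, 19.7 at SD day 2 and 7.44 at SD day 5. In LD it had 5.64 TPM at day 2 and 3.8 at day 5. The counting interval of SD day 5 over LD day 0 ran from 0.362 to 1.02 in tag 118 and so included 1. It ran from 0.187 to 0.406 in tag 62 and from 0.319 to 0.719 in tag 90. For tag 118 the interval of SD over LD at day 5, from 0.987 to 4.06, also included 1.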

How the results depend on the processing

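The number of held-back tags depended on the settings more than the share of day 0 that they kept. It was 219 with median-of-ratios scaling and 195 rescaled to the listed tags, and 68 with 5 TPM added, 52 with a floor of 50 TPM and 33 with a 2-fold threshold. All 127 members were among the 219, and 126 among the 195. Median-of-ratios scaling lowered LD day 2 and LD day 5 against the other libraries. That eases every part of the rule, so members could hardly be lost by it. The share of LD-falling tags held back on both days, 11.4% as reported, was 14.0% with TMM scaling, 16.4% with median-of-ratios scaling, 7.14% with 5 TPM added, 6.06% with a 2-fold threshold and 8.51% with counting intervals beyond 1. The median percent of day 0 kept in SD day 5 was 49.97% with 5 TPM added and 27.6% with a 2-fold threshold, where 90.9% of the tags kept the day 0 level (then 1/2) at day 2. In all, 13 of 63 such values were counted as moved and 50 were not. For shares and medians, moved means outside the interval over tags, which holds no spread between libraries. The number of held-back tags has no such interval. Over all settings the median kept in SD day 2 lay between 89.4% and 99.6%, and that in SD day 5 between 27.6% and 49.97%. Every setting applied a rule of the same form to the same values, and every set overlapped with the 127. Similar shares kept are thus partly set by the choice. Of 260 alternative ratios of SD over LD for the named tags none fell below 1 and 4 fell below 1.5-fold, those of tags 7 (day 5, in 2 settings), 71 (day 5) and 121 (day 2). These tags were chosen for ratios of at least 1.5, and a change in the added TPM cannot carry a ratio past 1. The outcome was thus largely set by the choice, and nothing is read from it. The scalings moved the median log2 ratio of the 6208 tags to LD day 0 from 0.17 to 0.04 in LD day 5 with median-of-ratios factors, and from -0.01 to -0.18 in SD day 5 with rescaling to the listed tags. No paired analysis was possible because each group is 1 library.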
